A study of Mus musculus with 8 samples.

Results

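Prostaglandins and leukotrienes are lipid mediators made from arachidonic acid, and 10 genes of their synthesis, sensing and breakdown were followed here in Kupffer cells, the macrophages that live in the sinusoids of the liver. The members were chosen by symbol and matched through their Ensembl mouse gene IDs: Pla2g4a, Ptgs1, Ptgs2, Ptges, Tbxas1, Alox5, Alox5ap, Ptger2, Ptger4 and Hpgd, which are 10 of the 55414 genes in the count table. They were chosen with earlier results of these data known. All 10 were found, and all 10 passed the filter on low counts, Ptges only through its level in CLP. The cells came from livers of wild-type mice of the C57BL/6J strain, collected 2 h after the caecum was ligated and punctured (CLP, caecal ligation and puncture), which lets gut contents leak into the abdomen and serves as a model of sepsis, or 2 h after a sham operation without it (Sham). Each group had 4 RNA-seq libraries of sorted cells, and no animal age is given in the labels. The labels number the replicates but do not state that each is a separate animal, so p-values here reflect only how far these samples spread, which may be technical. The study asks how sepsis leads to hemolysis, and the single comparison in these libraries is CLP against Sham.

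Arachidonic acid is cut from membrane phospholipids by cytosolic phospholipase A2, the product of Pla2g4a. The cyclooxygenases encoded by Ptgs1, which is expressed constitutively in many cells, and Ptgs2, which is known as an inducible gene of inflammation, turn it into prostaglandin H2, and terminal synthases then make prostaglandin E2 (Ptges) or thromboxane (Tbxas1). In a separate branch 5-lipoxygenase (Alox5), helped by its activating protein FLAP (Alox5ap), makes leukotrienes. Ptger2 and Ptger4 encode the EP2 and EP4 receptors for prostaglandin E2, both coupled to cyclic AMP, and Hpgd encodes the dehydrogenase that begins its inactivation. Kupffer cells are a known source of prostanoids in the liver.

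After CLP the inducible cyclooxygenase Ptgs2, the inducible prostaglandin E synthase Ptges, the EP4 receptor Ptger4 and the low-abundance lipoxygenase Alox5 rose, and the prostaglandin dehydrogenase Hpgd fell. The other 5 members, Pla2g4a, Ptgs1, Tbxas1, Alox5ap and Ptger2, did not pass an adjusted p of 0.05 in edgeR's quasi-likelihood test. Thus 4 of 10 members were higher and 1 was lower, where 24.9% of the 14655 genes tested were higher and 29.5% were lower, or 54.3% in either direction. The median log2 fold change of the 10 members was 0.22, and that of all genes tested was -0.04. With total-count scaling in place of TMM, 4 members were higher and 5 lower. In the 4 members that rose all 4 CLP libraries lay above all 4 Sham libraries, against 22.1% of all genes tested that lay without overlap above Sham. They overlapped in the other 6 members, Hpgd among them. Ptges, 1 of the 4, passed the count filter only through its level in CLP. The members were also chosen with earlier results of these data known. Set beside the values of all genes tested, these counts and the median thus support nothing about the members as a group.

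**Figure D1:**
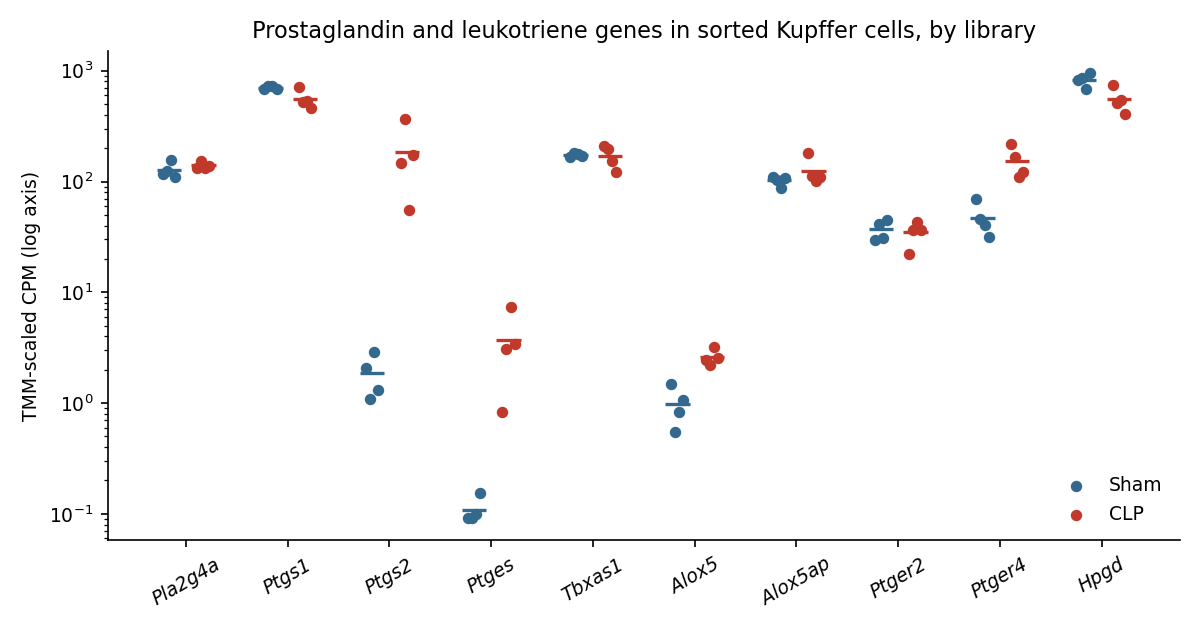
TMM-scaled CPM (log axis) of the 10 genes, where each point is 1 library and each bar the mean of 4 libraries, in Sham (blue) and CLP (red). Ptgs2, Ptges, Alox5 and Ptger4 have all 4 CLP points above all 4 Sham points, and the points of the other genes overlap.

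Levels are given as CPM, the counts of a gene relative to its library's total, after TMM scaling (trimmed mean of M-values), which sets the bulk of genes level between libraries. Each library held 23311897 to 28724875 counts. TMM factors were 0.801 to 0.837 in CLP and 1.16 to 1.28 in Sham, and scaling by total counts instead lowered the log2 fold changes by a median of 0.55. Among the CLP libraries replicate 1 was the odd one, with r of 0.968 to 0.972 to the others across genes, against 0.986 to 0.987 among those. The 16 Kupffer cell markers summed to 30829 to 39427 CPM in Sham and 40089 to 50953 CPM in CLP, with none of them at 0. Of the 16, 5 were called higher and 1 lower, beside 24.9% and 29.5% of all genes tested. Spic rose from a mean of 246 CPM in Sham to 1344 CPM in CLP, and Nr1h3 fell from 305 to 132 CPM. Markers of cells that also make eicosanoids moved with the surgery. The 12 neutrophil markers summed to 102 to 145 CPM in Sham and 258 to 671 CPM in CLP. Of these, 10 were tested and called higher, but 4 of them were under 1 CPM in Sham, where a gene may enter the test through CLP alone, and Ly6g and Camp had 0 counts in Sham and 31 and 39 in CLP. The 11 platelet markers summed to 15.5 to 28.4 CPM in Sham and 127 to 204 CPM in CLP. Of these, 8 were tested and called higher, 5 of them under 1 CPM in Sham, and Gp1bb was at 0 in every library. Counts of calls in lists with such genes are partly set by the filter and support nothing. Of 8 mast cell and basophil markers, Mcpt8, Fcer1a, Mcpt4 and Tpsb2 were at 0 in every library, and the sum of 2.54 to 4.02 CPM in Sham and 12.9 to 56.0 CPM in CLP was almost all Hdc. Sums in Sham and CLP were 157 to 264 and 204 to 339 CPM for 8 monocyte and dendritic cell markers, 1601.5 to 2029.9 and 2316 to 2847 CPM for 8 endothelial markers, and 2165.5 to 2906 and 2758 to 3672 CPM for 8 hepatocyte markers. They were 51.2 to 62.4 and 64.4 to 94.4 CPM for 8 stellate cell markers, 7.11 to 12.4 and 12.3 to 17.6 CPM for 6 B cell markers, and 0.581 to 1.22 and 1.78 to 4.29 CPM for 8 T and NK cell markers. Single genes carried much of several sums. Csf3r made a mean of 99.1 of the 128 neutrophil CPM in Sham and 246 of 491 CPM in CLP. Pf4 made 18.1 of 21.5 and 148 of 177 platelet CPM, and Plac8 205 of 208.5 and 264 of 268 monocyte and dendritic cell CPM. Cdh5 made 1277.5 of 1889 and 1914 of 2520 endothelial CPM, and Alb 1710 of 2499 and 2263 of 3089 hepatocyte CPM. Of the 8 endothelial markers 4 were called higher and 0 lower, beside 24.9% and 29.5% of all genes tested. Of the 8 hepatocyte markers 1 was called higher and 0 lower. Cd79b fell from 8.57 to 4.56 CPM within the B cell sum, while the other 5 B cell markers, each under 1 CPM in Sham, rose. The part of these other cell types in the results below was not tested.

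At the release step the member did not pass. Pla2g4a (ENSMUSG00000056220) stood at 117, 125, 156 and 111 CPM in Sham replicates 1 to 4 and at 134, 154, 133 and 138 CPM in CLP replicates 1 to 4. All 4 CLP libraries lay inside the range of the Sham libraries. CLP differed from Sham by 0.14 ± 0.12 on the log2 scale (SE, n = 4; edgeR adjusted p = 0.368). With total-count scaling it passed as lower, at -0.42 (edgeR adjusted p = 0.0162).

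Of the cyclooxygenases, Ptgs2 rose and Ptgs1 did not pass. Ptgs2 (ENSMUSG00000032487) was at 2.08, 1.10, 2.92 and 1.31 CPM in the Sham libraries and at 147, 365, 55.5 and 175 CPM in the CLP libraries. The lowest CLP library, replicate 3, was still far above the highest Sham library. The log2 fold change was 6.65 ± 0.60 (edgeR adjusted p = 1.27e-05), a 100.5-fold rise that ranked 24 among the rises of the 14655 genes tested. Pooled over libraries, there were 15302 counts in CLP against 234 in Sham. Divided by the TMM-scaled library sizes, they made a ratio of 98.0 (exact 95% counting interval 86.1 to 112, counting error only). Ptgs1 (ENSMUSG00000047250), the constitutive isoform, held 682, 729, 721 and 687 CPM in Sham and 712, 526, 531 and 461 CPM in CLP. Sham libraries were tightly grouped, and CLP replicate 1 lay among them while the other 3 CLP libraries lay below. The difference missed the threshold, at -0.34 ± 0.14 on the log2 scale (edgeR adjusted p = 0.0639). It passed as lower without CLP replicate 1 (-0.48, edgeR adjusted p = 0.00317), with limma voom, without the count filter and with total-count scaling (-0.89). In bulk libraries, fewer cells of a type and less RNA per cell cannot be told apart.

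The promoters of the isoforms are shown because their genes share an enzymatic reaction and their ratio differed more between the groups than any of the other 5 ratios tested. The windows are the 250 bases before the transcript start in RefSeq, on assembly GRCm38.p6, whereas the reads were counted on mm39. A window was found for 9 of the 10 members, and 7 motifs were searched on both strands: TATAAA, TGACGTCA and its core CGTCA (the full and the short cyclic AMP response element, CRE), TGANTCA (AP-1), CACGTG (E-box), GGGCGG (GC box) and the kappa B consensus. Capitals mark the matches, of which Ptgs2 has 1, a GC box, and Ptgs1 has 0.
Ptgs2, chr1:150099781-150100030, + strand: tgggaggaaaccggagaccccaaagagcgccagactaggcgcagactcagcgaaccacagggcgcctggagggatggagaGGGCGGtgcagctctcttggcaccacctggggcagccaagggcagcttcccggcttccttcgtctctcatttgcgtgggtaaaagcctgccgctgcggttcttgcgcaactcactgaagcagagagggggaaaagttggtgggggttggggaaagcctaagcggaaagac
Ptgs1, chr2:36230176-36230425, + strand: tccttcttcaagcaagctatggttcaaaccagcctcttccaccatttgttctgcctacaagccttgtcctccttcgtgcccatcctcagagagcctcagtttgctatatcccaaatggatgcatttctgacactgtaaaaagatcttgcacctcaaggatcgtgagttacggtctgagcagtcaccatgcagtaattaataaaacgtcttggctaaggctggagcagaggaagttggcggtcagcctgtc
GC boxes were found in 32.7% of all 32851 RefSeq windows of this length. The short CRE and the E-box of Ptgs2 lie past the start that RefSeq annotates, at bases 14 to 18 and 17 to 22 after it, and overlap by 2 bases. That stretch was looked at after the windows had been searched. Of all RefSeq windows that include the 50 bases after the start, 20.8% hold CGTCA and 7.15% hold CACGTG. The 30 bases around the pair, with both motifs in capitals, are shown because this element is a known control site of the gene.
Ptgs2, chr1:150100034-150100063, + strand: gtcaccactaCGTCACGTGgagtccgcttt
A match describes letters in a window and says nothing about binding in these cells.

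Among the terminal synthases, Ptges rose and Tbxas1 did not pass. Ptges (ENSMUSG00000050737), the microsomal prostaglandin E synthase that is known to be induced together with Ptgs2, had 3, 3, 3 and 5 counts in the Sham libraries and 20, 59, 161 and 70 in the CLP libraries. These were 0.0917, 0.0914, 0.101 and 0.153 CPM in Sham and 0.832, 3.09, 7.38 and 3.41 CPM in CLP. The groups did not overlap, though CLP replicate 1 was well below the rest of its group. Ptges rose by 5.01 ± 0.67 on the log2 scale (edgeR adjusted p = 1.27e-04). The pooled counts were 310 in CLP against 14 in Sham. Divided by the TMM-scaled library sizes, they made a ratio of 33.2 (exact 95% counting interval 19.5 to 61.4). That interval holds counting error only and leaves out the spread between libraries. With a mean of 0.109 CPM in Sham, Ptges passed the count filter only through its level in CLP, and without CLP replicate 3 its log2 fold change was 4.42. Tbxas1 (ENSMUSG00000029925), thromboxane A synthase, was at 165, 180.4, 176 and 172 CPM in Sham and at 208, 194.5, 153 and 121 CPM in CLP. CLP libraries lay on both sides of the narrow Sham range, and the log2 fold change was -0.04 ± 0.16, with an edgeR adjusted p of 0.862. Under total-count scaling Tbxas1 passed as lower (-0.59, edgeR adjusted p = 0.00717).

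The Ptges window, shown for the synthase that rose, holds 2 GC boxes at 53 to 48 and 42 to 37 bases before the start and none of the other motifs.
Ptges, chr2:30903298-30903547, - strand: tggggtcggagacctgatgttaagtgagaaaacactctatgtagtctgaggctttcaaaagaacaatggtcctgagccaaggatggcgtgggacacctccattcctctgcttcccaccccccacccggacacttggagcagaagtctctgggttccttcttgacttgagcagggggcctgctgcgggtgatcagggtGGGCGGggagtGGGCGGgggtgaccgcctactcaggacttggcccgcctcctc
Tbxas1 has 2 overlapping TATAAA matches, at 13 to 8 and 11 to 6 bases before its start, and an AP-1 match at 61 to 55. TATAAA was in 12.4% and TGANTCA in 6.75% of all windows.

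The 2 prostaglandin E2 receptors also differed from each other. Ptger4 (ENSMUSG00000039942), which encodes EP4, was at 69.0, 45.4, 40.3 and 31.6 CPM in Sham and at 217, 166, 109.8 and 121 CPM in CLP. Every CLP library was above every Sham library, and replicate 1 was the highest in each group. The log2 fold change was 1.72 ± 0.27 (edgeR adjusted p = 3.80e-04), a 3.29-fold rise. Ptger2 (ENSMUSG00000037759), which encodes EP2, was at 29.8, 41.8, 31.0 and 45.2 CPM in Sham and at 22.3, 36.8, 42.8 and 36.9 CPM in CLP. The groups overlapped, with a log2 fold change of -0.09 ± 0.21 (edgeR adjusted p = 0.727), and Ptger2 passed as lower with total-count scaling (-0.65, edgeR adjusted p = 0.0165). Exons of Ptger4 overlap exons of Ttc33 and Gm15937 on the opposite strand, which had 2875 and 86 counts in all 8 libraries against 19240 for Ptger4. The strand setting of the count was not given in the sources used here, and without it such partners cannot be told apart.

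The Ptger4 window is shown for the receptor that rose: it carries 4 GC boxes on the minus strand of the gene, the nearest at 42 to 37 bases before the start.
Ptger4, chr15:5244188-5244437, - strand: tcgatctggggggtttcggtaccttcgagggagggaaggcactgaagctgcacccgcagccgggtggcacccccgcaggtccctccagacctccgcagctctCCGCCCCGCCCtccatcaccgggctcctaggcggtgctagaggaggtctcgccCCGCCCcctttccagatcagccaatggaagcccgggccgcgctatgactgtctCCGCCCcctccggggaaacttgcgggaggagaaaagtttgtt
The Ptger2 window holds 0 matches to the motifs.

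For breakdown the one member is Hpgd. Hpgd (ENSMUSG00000031613), the 15-hydroxyprostaglandin dehydrogenase, was at 832, 859.8, 684 and 954 CPM in Sham and at 745, 511, 541 and 407 CPM in CLP. The 3 lowest libraries were CLP replicates 2 to 4, while CLP replicate 1 lay above Sham replicate 3. Hpgd fell by 0.60 on the log2 scale (SE 0.18, edgeR adjusted p = 0.0185), to 0.662 of its Sham level. Its call did not hold with the GC content correction (edgeR adjusted p = 0.0708) or without any one of CLP replicate 2 (0.0564), CLP replicate 4 (0.0511), Sham replicate 2 (0.0519) or Sham replicate 4 (0.0671), with log2 fold changes of -0.47 to -0.57, and it was -0.77 without CLP replicate 1. The Hpgd window, shown for the member that fell, has a GC box at 50 to 45 bases before the start, and a TATAAA match follows at bases 5 to 10 after it.
Hpgd, chr8:56294302-56294551, + strand: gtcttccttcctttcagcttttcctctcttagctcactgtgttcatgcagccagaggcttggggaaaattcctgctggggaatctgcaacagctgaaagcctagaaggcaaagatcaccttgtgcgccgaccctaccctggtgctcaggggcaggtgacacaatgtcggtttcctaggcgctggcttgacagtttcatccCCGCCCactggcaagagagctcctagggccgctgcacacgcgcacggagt

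In the leukotriene branch Alox5 rose from a very low level and Alox5ap did not pass. Alox5 (ENSMUSG00000025701) had 49, 18, 25 and 35 counts in Sham and 59, 42, 70 and 52 in CLP, or 1.497, 0.549, 0.838 and 1.07 CPM and 2.46, 2.20, 3.21 and 2.54 CPM. The groups were separate but close, with a log2 fold change of 1.39 ± 0.31 (edgeR adjusted p = 0.00346). With total-count scaling the log2 fold change was 0.84 (edgeR adjusted p = 0.035). The pooled counts were 223 in CLP against 127 in Sham. Divided by the TMM-scaled library sizes, they made a ratio of 2.63 (exact 95% counting interval 2.11 to 3.30, counting error only). Neutrophils are known to express Alox5. Neutrophil markers were 258, 386, 671 and 650 CPM in CLP replicates 1 to 4, and the part of those cells in the rise of Alox5 was not tested. Alox5ap (ENSMUSG00000060063) was at 109.8, 103, 88.2 and 108 CPM in Sham and at 180.1, 111, 100.3 and 110.2 CPM in CLP. Only CLP replicate 1 stood well above the Sham range. The log2 fold change was 0.29 ± 0.18 (edgeR adjusted p = 0.186), or 0.07 without CLP replicate 1 and -0.25 with total-count scaling.

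**Figure D2:**
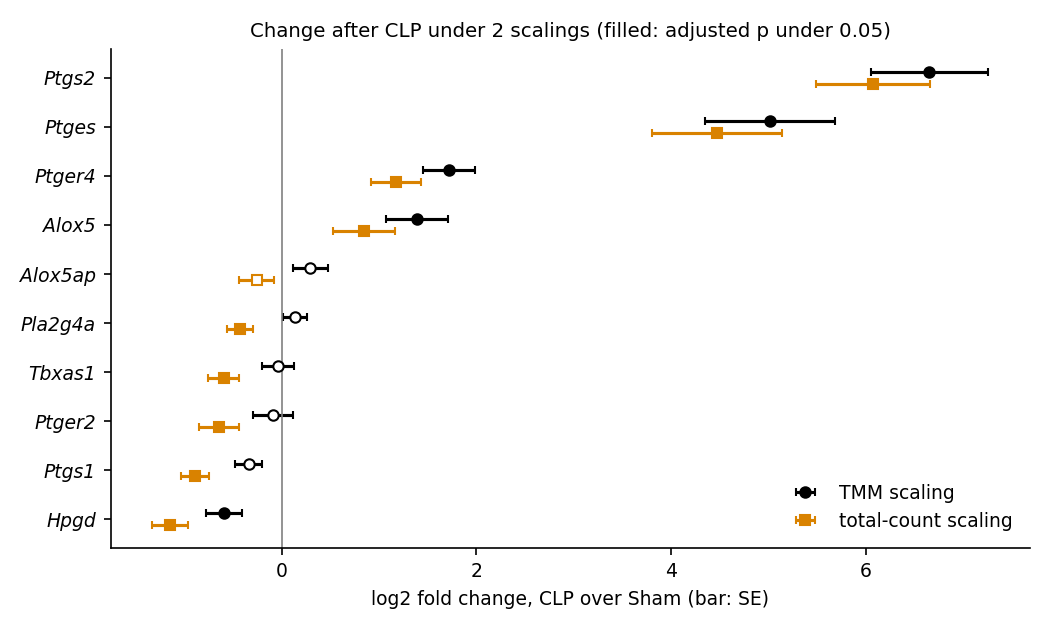
Log2 fold change of CLP over Sham for the 10 genes with TMM scaling (black circles) and total-count scaling (orange squares), where bars are 1 SE and filled symbols have an edgeR adjusted p under 0.05. Ptgs2, Ptges, Ptger4 and Alox5 are higher with both, and Hpgd is lower with both.

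Over 15 alternative fits the 4 members that rose stayed past the threshold, with the highest edgeR, DESeq2 or limma voom adjusted p at 6.74e-04 for Ptgs2, 0.00178 for Ptges, 0.00492 for Ptger4 and 0.035 for Alox5. Ptges entered the fits with a count filter only through its level in CLP. Adjusted p-values ran from 2.59e-04 to 0.0708 for Hpgd, 2.72e-04 to 0.177 for Ptgs1, 0.0162 to 0.663 for Pla2g4a, 0.00717 to 0.992 for Tbxas1, 0.0165 to 0.958 for Ptger2 and 0.107 to 0.574 for Alox5ap.

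Per kilobase of exon the members spanned more than 4 orders of magnitude in Sham. Levels per length (RPKM) were 494.5 ± 66.4 for Hpgd, 181 ± 6.14 for Ptgs1 and 72.0 ± 6.93 for Alox5ap (SD, n = 4). Below them came Pla2g4a at 19.9 ± 3.11 and Tbxas1 at 19.1 ± 0.710, whose ranges overlapped, then Ptger2 at 7.11 ± 1.48 and Ptger4 at 7.005 ± 2.41, which overlapped as well. Ptgs2 at 0.404 ± 0.180 and Alox5 at 0.241 ± 0.0976 also overlapped, and Ptges was the lowest at 0.0278 ± 0.00748 RPKM. After CLP the same 3 genes led, Hpgd at 327 ± 84.1, Ptgs1 at 144 ± 27.8 and Alox5ap at 88.4 ± 25.9 RPKM. Ptgs2 moved from place 8 to place 4, at 40.5 ± 28.4 RPKM, and Ptger4 from place 7 to place 5, at 23.1 ± 7.35 RPKM. The CLP ranges of Ptgs1 and Alox5ap overlapped, as did those of each neighbouring pair from Alox5ap through Ptgs2, Ptger4 and Pla2g4a (21.9 ± 1.503) to Tbxas1 (18.6 ± 4.40). Ptger2 followed at 6.69 ± 1.68 RPKM, and Ptges at 0.936 ± 0.692 and Alox5 at 0.633 ± 0.105 RPKM shared the bottom with overlapping ranges.

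Ratios between 2 genes of the same library do not depend on the scaling, and 6 such ratios were tested (two-sided exact permutation test, in which 4 against 4 libraries cannot give a p below 0.0286). Ptgs2 stood at 0.00259, 0.00128, 0.00343 and 0.00162 of Ptgs1 per kilobase in Sham and at 0.175, 0.588, 0.0886 and 0.322 in CLP. The ratio was thus higher in all 4 CLP libraries, by 6.81 ± 0.67 on the log2 scale (exact permutation p = 0.0286, adjusted over the 6 ratios 0.0343), yet in none of them did the inducible isoform reach the constitutive one. The synthase to breakdown ratio, Ptges over Hpgd, was higher by 5.35 ± 0.80 on the log2 scale, and Ptges over Tbxas1 by 4.80 ± 0.79 (both exact permutation p = 0.0286, adjusted 0.0343). Both rest on the 3 to 5 Ptges counts of each Sham library: they were 4.63 and 4.08 from log2 CPM with a prior count of 2, and 6.10 and 5.50 without CLP replicate 1. Ptges alone already separated the groups by more than Hpgd or Tbxas1 varied. Both tests thus had to reach their smallest p and add no support to the rise of Ptges. The same holds for Ptgs2 over Ptgs1 and Ptgs2 over Alox5. Ptger4 over Ptger2 was 1.81, 0.850, 1.02 and 0.546 in Sham and 7.58, 3.52, 2.00 and 2.56 in CLP, a difference of 1.83 ± 0.55 (exact permutation p = 0.0286, adjusted 0.0343). All 4 CLP libraries held more Ptger4 than Ptger2 per kilobase, and the Sham libraries lay on both sides of equal. Ptgs2 over Alox5 was higher by 4.98 ± 0.75 (exact permutation p = 0.0286, adjusted 0.0343), or by 5.57 without CLP replicate 3. Alox5ap exceeded Alox5 by 212, 543, 304 and 293 times in Sham and by 212, 146, 90.5 and 126 times in CLP. That difference of -1.21 ± 0.38 did not pass (exact permutation p = 0.0571, adjusted 0.0571).

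**Figure D3:**
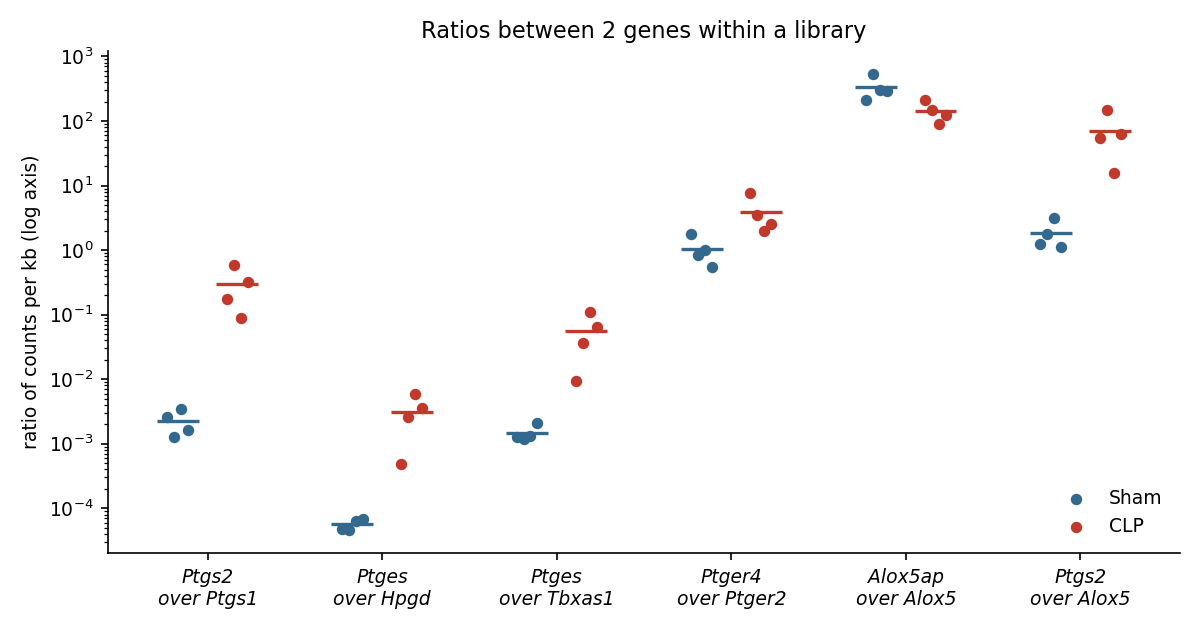
Ratio of counts per kilobase of 2 genes within each library (log axis), where each point is 1 library and each bar the mean of 4 libraries, in Sham (blue) and CLP (red). In 5 of the 6 ratios the groups are separate, and Alox5ap over Alox5 touches at 212.

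The genes whose pattern over the 8 libraries was most like that of Ptgs2, by the root mean square difference of log2 CPM centred on each gene's mean among 7908 genes with at least 10 CPM on average, were the neutrophil-attracting chemokines Cxcl2 (0.63) and Cxcl1 (0.67), the chemokine Ccl4 (0.66), tissue factor F3 (0.72) and Smim3 (0.74). Their log2 fold changes were 5.72, 5.63, 6.99, 5.72 and 6.68. Cxcl2, Cxcl1 and F3 had their lowest CLP value in replicate 3 and their highest in replicate 2, as Ptgs2 did. The search picked genes for likeness over these same libraries, so a shared order is partly what it selects. F3 (0.537 to 0.917 CPM in Sham) and Smim3 (0.853 to 0.972 CPM in Sham) met the mean of 10 CPM only through CLP. For Hpgd, the only member called lower, they were Golm1 (0.05), Rbl2 (0.08), Klhl5 (0.09), Aldh3a2 (0.09) and Pdk1 (0.09), with log2 fold changes of -0.54 to -0.63. In a design with 2 groups, likeness over 8 libraries rests mostly on the difference between the groups.

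Of 72 further genes of the pathway in 7 lists, 43 were tested. Of these 9 were higher and 5 lower, beside 24.9% higher and 29.5% lower over all genes tested, and their median log2 fold change was -0.02. With total-count scaling 7 were higher and 27 lower. In the list for release and re-esterification of arachidonate 4 of 18 tested rose, a share near the 24.9% of all genes tested, and 0 fell in edgeR, beside 29.5% of all genes, where 1 was lower at an unadjusted p under 0.05 (DESeq2 called 0 lower and limma voom 1). The acyl-CoA synthetases Acsl5 (log2 fold change 1.43 ± 0.19, edgeR adjusted p = 1.21e-04) and Acsl4 (1.14 ± 0.17, edgeR adjusted p = 2.22e-04), which load fatty acids such as arachidonate onto coenzyme A, had the smallest p, and Lpcat1 and Plaa, named after their values were seen, rose by 0.98 and 0.60. The secreted phospholipases Pla2g2a, Pla2g2e, Pla2g2f, Pla2g5 and Pla2g10 were at 0 counts in all 8 libraries. Pla2g2d, also secreted, had 1 count in each group. The secreted Pla2g12a was at 7.18 CPM in Sham and 6.77 CPM in CLP and did not pass (edgeR adjusted p = 0.788). Of 7 other prostanoid synthases tested, Hpgds, the hematopoietic prostaglandin D synthase, was at 38.1 ± 2.31 CPM in Sham and 111 ± 49.8 CPM in CLP (1.54 ± 0.26, edgeR adjusted p = 5.98e-04), and the cytosolic synthase and co-chaperone Ptges3 rose by 0.95 ± 0.11. Ptges2 fell from 7.40 to 4.47 CPM. Of the 3 prostaglandin E synthases, Ptges and Ptges3 were thus called higher and Ptges2 lower.

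Other receptors were sparse or lower. Of 7 other prostanoid receptors only Ptger1 was tested, at about 1.11 CPM in Sham and 0.926 CPM in CLP, and it did not pass (edgeR adjusted p = 0.478). The thromboxane receptor Tbxa2r had 5 counts in CLP and 9 in Sham (0.0583 and 0.0695 CPM), and the prostaglandin D2 receptors Ptgdr and Ptgdr2 had 0 in every library. Ptgir, also not tested, went the other way with 56 counts in CLP and 22 in Sham (0.633 and 0.172 CPM), in overlapping groups. Both cysteinyl leukotriene receptors fell, where 29.5% of all genes tested were lower. Cysltr2 went from 6.19 ± 0.600 to 1.69 ± 0.234 CPM (-1.87 ± 0.19, edgeR adjusted p = 2.17e-05). Cysltr1 went from 26.3 ± 1.42 to 17.8 ± 5.37 CPM (-0.56 ± 0.19, edgeR adjusted p = 0.0262). The Cysltr1 call was lost with the GC content correction (-0.44, edgeR adjusted p = 0.206) and without CLP replicate 3 (0.0722) or 4 (0.0736) or Sham replicate 2 (0.0594), 3 (0.0662) or 4 (0.0577), with log2 fold changes of -0.44 to -0.56. The leukotriene B4 receptors Ltb4r1 and Ltb4r2 had too few counts to be tested, 25 and 23 in CLP and 60 and 67 in Sham. These were 0.288 and 0.273 CPM in CLP and 0.471 and 0.525 CPM in Sham, with overlapping groups. Of 5 genes tested for leukotriene synthesis and breakdown beyond the members, none passed, beside 54.3% of all genes tested called in either direction. Among them were Lta4h, which makes leukotriene B4 (-0.26 ± 0.15), and Ltc4s, which makes leukotriene C4 (-0.24 ± 0.18), with edgeR adjusted p-values of 0.175 and 0.275. At an unadjusted p under 0.05 there were 2 in edgeR, Cyp4f18 and Ggt5, and by adjusted p DESeq2 called 1 higher, Cyp4f18, and limma voom 0.

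Export and the other lipoxygenases completed the set. Abcc1, an export pump that carries leukotriene C4, was at 149 ± 30.4 CPM in Sham and 597 ± 181 CPM in CLP (a log2 rise of 2.00 ± 0.24, edgeR adjusted p = 6.57e-05). Abcc4, a prostaglandin exporter, rose by 0.45 ± 0.14 (edgeR adjusted p = 0.0220), with overlapping groups and -0.11 under total-count scaling, and its call was lost without CLP replicate 3 (0.35, edgeR adjusted p = 0.0647) or Sham replicate 4 (0.44, edgeR adjusted p = 0.0517). The prostaglandin importer Slco2a1 did not pass (-0.08 ± 0.13, edgeR adjusted p = 0.637). Alox12, the platelet-type lipoxygenase, was at 0.627 ± 0.261 CPM in Sham and 4.07 ± 1.45 CPM in CLP (2.68 ± 0.37, edgeR adjusted p = 1.53e-04), beside the platelet marker sums above, whose part in it was not tested. Aloxe3 fell from 1.51 to 0.435 CPM (-1.77 ± 0.38), with 192 counts in Sham and 38 in CLP. Its CLP libraries were at 0.244 to 0.641 CPM, so it may have met the count filter through Sham alone. The soluble epoxide hydrolase Ephx2 fell by 0.58 on the log2 scale (edgeR adjusted p = 0.0292), with overlapping groups. The Ephx2 call was lost with limma voom (-0.54, adjusted p = 0.0578) and, in edgeR, without CLP replicate 2 (0.0579) or 3 (0.0761) or Sham replicate 3 (0.0729) or 4 (0.0958), with log2 fold changes of -0.41 to -0.59.

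**Figure D4:**
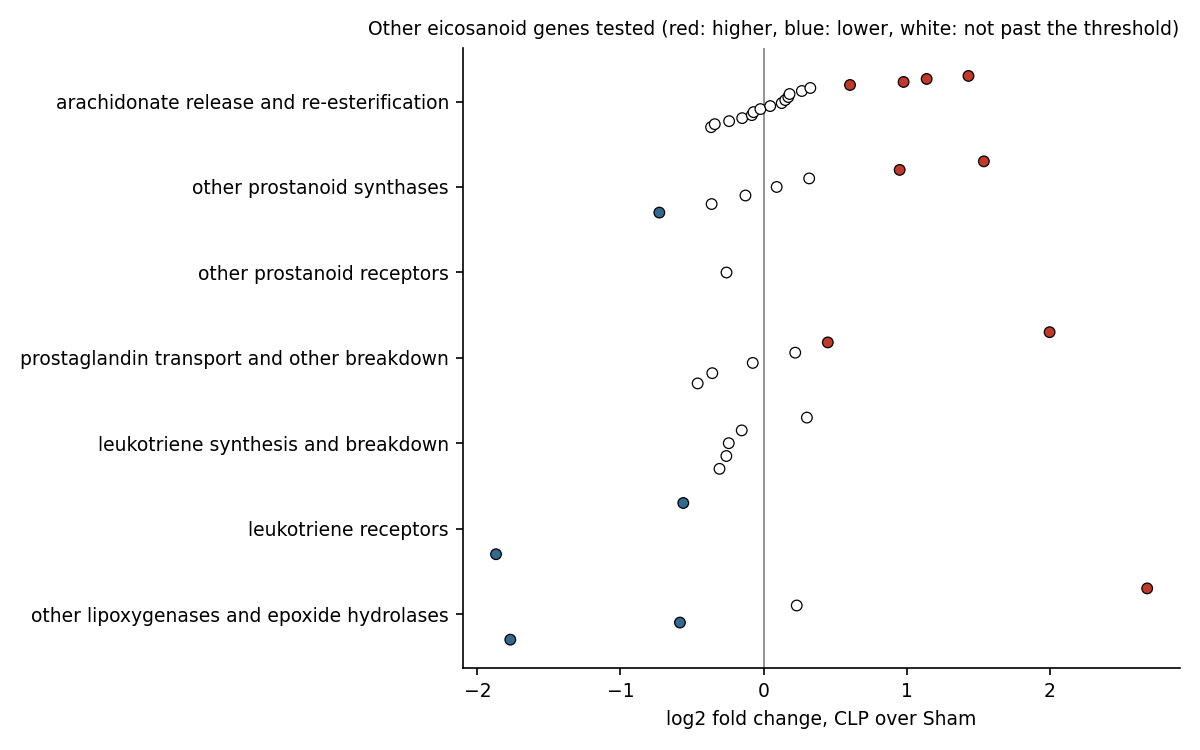
Log2 fold change of CLP over Sham for the 43 further pathway genes tested, 1 point per gene, grouped by list, red where higher, blue where lower and white where the edgeR adjusted p was not under 0.05. Of the 43 points 9 are red and 5 are blue.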

How the data were processed

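RNA from sorted Kupffer cells of 4 CLP and 4 Sham samples was sequenced from stranded TruSeq libraries, per the labels' protocols. The deposited values are raw read counts for 55414 Ensembl gene IDs. Per the submitters' processing notes, the authors used FastQC, STAR 2.7.10b, featureCounts and DESeq2 with assembly mm39. Their settings, strand included, were not given in the sources used here. Members and all lists were chosen with earlier results of these data known.

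Symbols and exon lengths came from GENCODE M21, which named 52133 IDs with 99.8% of the counts. All 72 pathway and 93 marker genes were found. The test was edgeR's robust quasi-likelihood test (edgeR 4.0.16, R 4.3.3) on surgery alone, after filterByExpr and TMM scaling, with Benjamini-Hochberg adjustment over 14655 genes and a threshold of 0.05. SE is the absolute log2 fold change over the square root of F. Log2 CPM used a prior count of 2, and RPKM is TMM-scaled CPM per kilobase of merged exons. Ratios were tested with scipy 1.17.1. Alternatives were DESeq2 1.42.0, limma 3.58.1 voom, DESeq2 size factors, total counts, a GC content correction, no count filter, a replicate block and leaving out each library. Same-numbered CLP and Sham libraries deviated together with r of 0.17, -0.12, 0.13 and -0.09, so the numbers were not taken as pairs. Promoters came from RefSeq (GRCm38.p6).

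Named genes were the 10 members, in each pathway list the 2 higher and 2 lower with the smallest p or all of up to 3 calls, the 5 genes most like Ptgs2 and most like the members with the largest called rise and fall, and the markers. Tested on simulated data for CLP against Sham over 14655 genes, edgeR recovered 8, 28, 44 and 49 of 50 genes changed by 1.5, 2, 4 and 8 times, with 6 false calls among 135. For voom, 6 of 134 calls were false, and for DESeq2 36 of 180. Only 50 genes were changed at each of these folds, whereas 54.3% of the 14655 genes tested were called in the data. Whether the recovery and the numbers of false calls carry over to data with so many calls was not tested.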

Additional observations from a re-analysis of the deposited data

Results flagged for a closer look

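In 32 groups of 4 libraries, the 10 genes and 6 ratios in each surgery group, 3 had 1 library far from the others. Chance flags about 1 in 20 groups of independent values, and these are not independent, because the ratios share genes. Ptges in Sham was at 0.153 CPM in replicate 4 and at 0.0914 to 0.101 CPM in the other 3, a difference of 5 counts against 3. The ratio of Ptges over Tbxas1 per kilobase in Sham, 0.00206 in replicate 4 and 0.00117 to 0.00132 in the others, rests on those counts too. Alox5ap in CLP was at 180.1 CPM in replicate 1 and at 100.3 to 111 CPM in the other 3.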

How the results depend on the processing

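Of 150 values of the 10 members under 15 alternatives, 131 kept their direction and their side of the threshold. Members lower numbered 1, and 2 with limma voom, 2 without the count filter, 5 with total-count scaling, 0 with the GC content correction and 0 to 2 when 1 library was left out (2 without CLP replicate 1), while members higher stayed at 4 throughout. Pathway genes lower numbered 5, and 27 with total-count scaling, 8 without the count filter and 3 to 10 when 1 library was left out (10 without CLP replicate 1). Over all genes, total-count scaling gave 1715 higher and 8292 lower in place of 3644 and 4319, so 17.1% of calls were upward in place of 45.8%. Signs turned with total-count scaling for Pla2g4a (-0.424), Alox5ap (-0.254) and Abcc4 (-0.106), for Tbxas1 with DESeq2 and with its size factors (0.027 each) and without CLP replicate 3 or 4 (-0.151 to 0.102 when 1 library was left out), and for Ptger2 without CLP replicate 1 or Sham replicate 4 (-0.204 to 0.073). The cause was not tested. With the replicate block 4 members were higher and 1 lower, and over all genes 3491 and 4303. For the 6 ratios the mean over same-numbered pairs equals the difference of the group means by arithmetic (6.81 for Ptgs2 over Ptgs1 with the block), so the block tells nothing about their stability. Exact p-values cannot go below 0.125 with 4 pairs or 0.0571 with 3 libraries against 4. Lengths of the longest transcript placed Tbxas1 before Pla2g4a and Ptger4 before Ptger2 in Sham, all with overlapping ranges. Depth limits Ptges, with 14 counts in Sham, and Alox5, with 127.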

Other observations

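The members that rose most were also uneven within the CLP group. The SD of log2 CPM over the 4 CLP libraries was 1.12 for Ptgs2, where 99.6% of 975 genes within 0.5 log2 units of its level had a smaller one and their median was 0.185. For Ptges the SD was 1.26, above 99.5% of 1522 genes of like level (median 0.391). The order of the libraries differed: Ptgs2 was lowest in CLP replicate 3, where Ptges was highest, and Ptges was lowest in CLP replicate 1. In Sham, Ptgs1 and Tbxas1 were even, with SDs of 0.049 and 0.054 that exceeded those of 1.4% of 138 and 6.8% of 858 genes of like level. Pla2g4a was even in CLP, at 0.096, above 17.2% of 1047 genes. These are descriptions of 4 libraries a group, without a test.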
